A study of Mus musculus with 15 samples.

Results

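The mouse locus of the inhibitory receptor Lilrb4a was followed across 15 RNA libraries of retinal microglia. The annotation places 3 overlapping gene models there, Lilrb4a, Lilr4b and Gm49339, out of 35519 genes in the deposited tables. They hold 30 of the 116945 transcripts listed, and every read that the deposited tables give to any of the 30 was counted. The models were chosen by the fitted fold change of Gm49339 between wild-type microbead and wild-type sham retinas, and its overlap with the other 2, so the values of that comparison are given here as a description without a test.

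All mice were C57BL/6 and 12 weeks old. The groups were Apoe-/- mice with a microbead injection (n = 4), Apoe-/- mice with a sham injection (n = 4), wild-type mice with a microbead injection (n = 3) and wild-type mice with a sham injection (n = 4). Injected microbeads obstruct drainage and thereby increase pressure inside the eye, a model of glaucoma. Microglia were sorted from each retina as Fcrls+, CD11b+ and Ly6c- cells, 100 to 600 per retina, a gate set to leave out cells without Fcrls. The labels do not say whether the retinas of a group came from separate mice, so p-values measure only the spread between these samples, which may be technical. Genotype went with the plate letter in the table names, and the genotype and the plate cannot be told apart.

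Lilrb4a, also called gp49B, is a receptor of myeloid cells with immunoglobulin domains outside the cell and inhibitory motifs (ITIMs) inside it. A phosphorylated ITIM recruits phosphatases such as SHP-1, which dampen signals from activating receptors. Lilr4b, also called gp49A, is its close neighbour and lacks these motifs. Mouse Lilrb4a binds the integrin made of the Itgav and Itgb3 products, and in humans the related receptor LILRB4 has been reported to bind apolipoprotein E. Lilrb4 genes are among those that microglia express more in disease-associated states.

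The 3 models lie on the plus strand of chromosome 10 (mm10) and share exons. Lilr4b (ENSMUSG00000112023) spans 51480632 to 51486703 and has 13 transcripts. Lilrb4a (ENSMUSG00000112148) spans 51490956 to 51496611 and has 14. Gm49339 (ENSMUSG00000062593) runs across both, from 51480612 to 51496613, and has 3. Each is annotated as protein coding. In Gm49339-203 the first exon, from 51480640 to 51480753, ends where a Lilr4b exon ends, and all 8 later exons lie inside Lilrb4a exons.

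**Figure D1:**
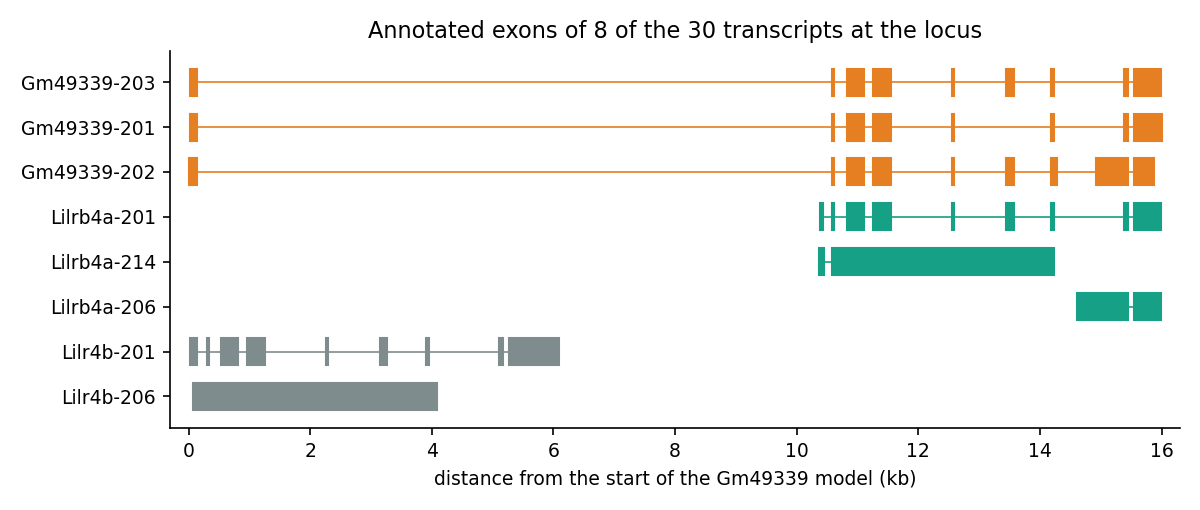
Exons (boxes) and introns (lines) of 8 of the 30 annotated transcripts, by distance in kb from the start of the Gm49339 model. The 3 Gm49339 transcripts (orange) start at the left with Lilr4b (grey) and continue through the exons of Lilrb4a (green), while Lilrb4a-214, Lilrb4a-206 and Lilr4b-206 are annotated with retained introns.

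The first coding bases show how little separates the models, and they are printed because reads are divided on such differences. They come from the GENCODE transcripts of the same build. The capital marks the only position at which the 3 runs differ.
Gm49339-203: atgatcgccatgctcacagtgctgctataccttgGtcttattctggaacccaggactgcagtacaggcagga
Lilrb4a-201: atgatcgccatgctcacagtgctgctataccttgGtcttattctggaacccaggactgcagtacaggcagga
Lilr4b-201: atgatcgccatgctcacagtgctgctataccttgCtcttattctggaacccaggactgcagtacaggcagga
Over these 72 bases Gm49339-203 differed from Lilrb4a-201 at 0 positions and from Lilr4b-201 at 1. The identity with Lilrb4a-201 held over the whole coding sequence of 1005 bases. Gm49339-203, of 1441 bases, contained all 1381 bases of Lilrb4a-201, with 59 more at its 5′ end and 1 more at its 3′ end. Likewise, the 888 coding bases of Gm49339-201 and Lilrb4a-212 were identical. Lilr4b-201 and Lilrb4a-201 were identical at 871 of 907 aligned coding bases, or 96.03%.

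The ends of the coding sequences are where the receptors part, since the ITIMs lie there. Capitals mark codon runs that match the ITIM pattern, a tyrosine codon in the third place with isoleucine, leucine, valine or serine in the first and leucine, valine or isoleucine in the sixth.
Lilrb4a-201, coding bases 868 to 1005: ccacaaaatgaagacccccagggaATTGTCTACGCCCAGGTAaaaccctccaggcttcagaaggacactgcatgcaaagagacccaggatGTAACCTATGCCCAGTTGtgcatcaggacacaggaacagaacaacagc
Lilr4b-201, coding bases 868 to 909: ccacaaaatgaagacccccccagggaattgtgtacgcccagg
Lilrb4a-201, and with it Gm49339-203, carried 2 such runs in this stretch, and Lilr4b-201 carried 0. The exon before the last was 66 bases long in Lilrb4a-201 and 68 in Lilr4b-201. A read that matches Gm49339-203 thus also matches Lilrb4a-201 unless it covers the extra bases at either end.

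How far reads can be divided was measured in words of 31 bases, a length chosen here. Of the words of Gm49339-203, 98.72% occurred in a Lilrb4a transcript, 43.66% in a Lilr4b transcript and 0 in no other model. Gm49339-201 had 2 words of its own and Gm49339-202 had 49, or 2.681% of its words. All words of the coding transcripts Lilrb4a-201 and Lilrb4a-212 occurred in Gm49339. Transcripts with retained introns stood apart better, with 54.45% of the words of Lilrb4a-214 and 66.08% of those of Lilr4b-206 found in no other model. Outside the locus, 3 words were shared with Fmo1 and 1 with Tmem132c. The sum over the 3 models was a whole number of reads, within 0.01, in all 15 libraries, while single models could receive fractions, such as 19.3 of 43 reads for Gm49339 in wild-type microbead library 1. The sum is therefore given first and the division after it.

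Apoe-/- retinas with microbeads had more reads at the locus than Apoe-/- sham retinas in these libraries. The Apoe-/- microbead libraries held 21, 30, 20 and 24 locus reads, against 8, 2, 7 and 8 in Apoe-/- sham libraries. As CPM, counts scaled to a common library size with TMM factors, these were 43.5, 82.0, 38.9 and 37.4 CPM in microbead libraries and 19.0, 8.88, 12.2 and 20.9 CPM in sham libraries. Every microbead library lay above every sham library, which held for 1.55% of the 6519 genes tested. The means were 50.4 ± 21.2 CPM in Apoe-/- microbead and 15.2 ± 5.66 CPM in Apoe-/- sham libraries (SD, n = 4 each).

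The log2 fold change in Apoe-/- was 1.65 (SE 0.50, 3.14-fold), and it did not pass the threshold over all genes, with an adjusted p of 0.699 by edgeR's quasi-likelihood test. Its unadjusted edgeR p was 0.00394, place 19 of 6519 when genes are ordered by p. An exact two-sided permutation test of log2 CPM over the 8 Apoe-/- libraries, added after the values were seen, gave p = 0.0286, the smallest that its 70 arrangements allow. As the groups did not overlap, the test could give no other value, and it only restates that separation. Over the 3 permutation tests run here the adjusted p was 0.0858. No gene passed in this comparison (percent called, 0), and 454 (6.96%) had an unadjusted edgeR p under 0.05. DESeq2 called 0 as well, with 433 under an unadjusted 0.05. Without a filter on low counts edgeR called 38 genes, and the locus was among those past the threshold (log2 fold change 1.75, adjusted p = 0.0347).

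Wild-type microbead libraries held 43, 307 and 88 locus reads, against 31, 18, 18 and 15 in wild-type sham libraries. Scaled, they stood at 62.2, 307.0 and 117.4 CPM with microbeads and at 47.1, 31.4, 21.6 and 32.3 CPM with sham injection. These groups did not overlap either, but this comparison chose the models and nothing is read from that; 6.27% of tested genes had all microbead libraries above all sham libraries. The wild-type microbead libraries spread widely, at 162.2 ± 128 CPM (SD, n = 3), and wild-type sham libraries were closer together, at 33.1 ± 10.5 CPM (SD, n = 4). Library 2 alone held most of the wild-type microbead reads. The log2 fold change was 2.30 (SE 0.43), and without that library it was 1.44.

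**Figure D2:**
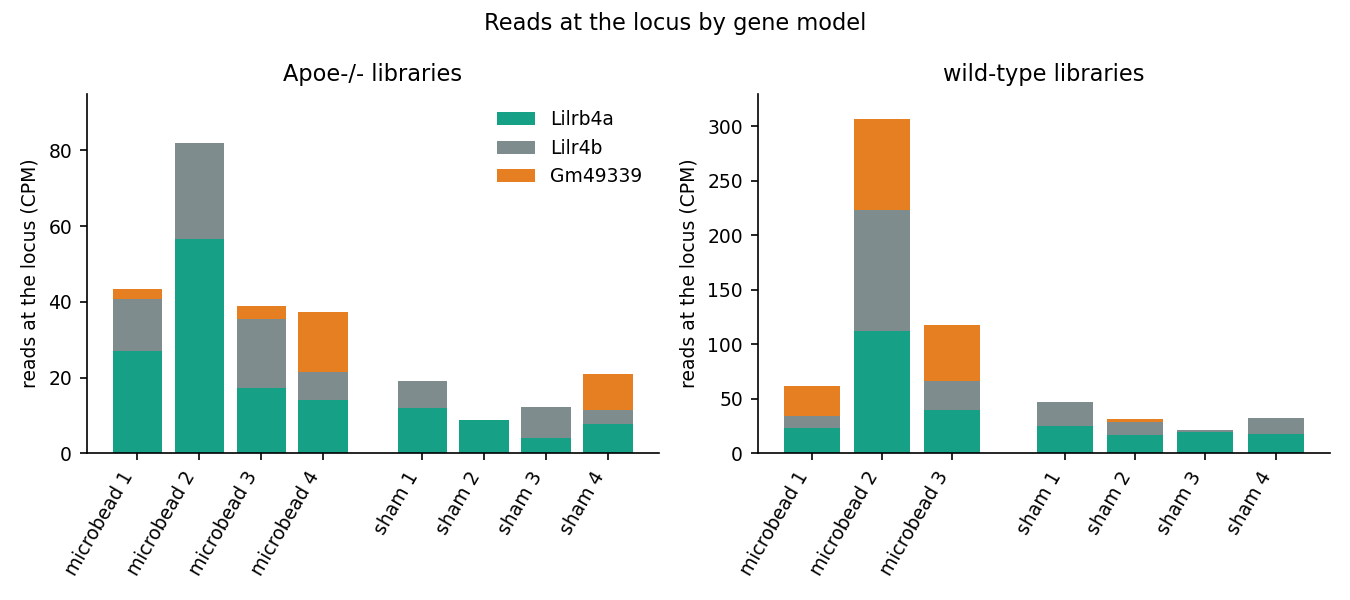
Reads at the locus (CPM, TMM-scaled) in each library, stacked by the gene model that received them, with Apoe-/- libraries at the left and wild-type libraries at the right. The vertical axes differ between the panels. Apoe-/- microbead libraries reach 37.4 to 82.0 CPM and Apoe-/- sham libraries 8.88 to 20.9 CPM, while wild-type microbead libraries reach 62.2 to 307.0 CPM and wild-type sham libraries 21.6 to 47.1 CPM.

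The order of the group means on the CPM scale was wild-type microbead, Apoe-/- microbead, wild-type sham and Apoe-/- sham. Apoe-/- microbead and wild-type sham, neighbours in this order, overlapped, since Apoe-/- microbead libraries began at 37.4 CPM and the highest wild-type sham library stood at 47.1 CPM. Wild-type microbead and Apoe-/- microbead libraries overlapped too, through wild-type library 1 at 62.2 CPM. Wild-type sham and Apoe-/- sham libraries were separated only narrowly, at 21.6 CPM for the lowest wild-type and 20.9 CPM for the highest Apoe-/- library. The Apoe-/- side rests on 8, 2, 7 and 8 reads. For this pair of groups the share of all genes so separated was not counted, so nothing is read from it.

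The change in Apoe-/- was 0.65 smaller on the log2 scale than the change in wild type, with an SE of 0.69 that exceeds it. Leaving out wild-type microbead library 2 turned this difference to 0.21. Between genotypes, the log2 fold change of Apoe-/- over wild type was -1.07 (SE 0.51) in sham retinas and -1.72 (SE 0.43) in microbead retinas. Without wild-type microbead library 2 the value in microbead retinas was -0.87. Both are descriptions, since they use the wild-type libraries that chose the models, and both go with the plate letter. In bulk samples fewer cells that express a gene and less RNA per cell cannot be told apart.

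On the scale of deposited TPM, which corrects for transcript length, locus levels were 5.90, 11.8, 5.30 and 9.14 TPM in Apoe-/- microbead libraries, against 2.78, 0.643, 1.16 and 2.36 TPM in Apoe-/- sham libraries. They were 13.2, 90.6 and 41.5 TPM in wild-type microbead libraries, against 6.47, 5.25, 4.62 and 2.42 TPM in wild-type sham libraries. The groups were ordered as on the CPM scale. TPM also moved the median of all tested genes, by 0.18 in Apoe-/- and 0.58 in wild type on the log2 scale, in the direction of the microbead groups. Among 33 genes, the locus sum and the annotated members of a list of inhibitory receptors, mean TPM put the locus in place 8 in Apoe-/- microbead, 21 in Apoe-/- sham, 7 in wild-type microbead and 14 in wild-type sham retinas.

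Fold changes of the separate models differed widely, although they divide the same reads. With each model as a row of its own, Gm49339 had a log2 fold change of 1.20 (SE 1.13) in Apoe-/- and 5.75 (SE 0.97) in wild type. Lilrb4a had 1.82 (SE 0.62) in Apoe-/- and 1.57 (SE 0.48) in wild type. Lilr4b had 1.48 (SE 0.90) in Apoe-/- and 1.99 (SE 0.68) in wild type. In Apoe-/- the adjusted p by edgeR was 0.825 for Gm49339, 0.70 for Lilrb4a and 0.745 for Lilr4b, and none passed. The Apoe-/- change less the wild-type change was therefore -4.55 (SE 1.82) if read from Gm49339, -0.51 (SE 1.23) from Lilr4b and 0.26 (SE 0.77) from Lilrb4a.

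**Figure D3:**
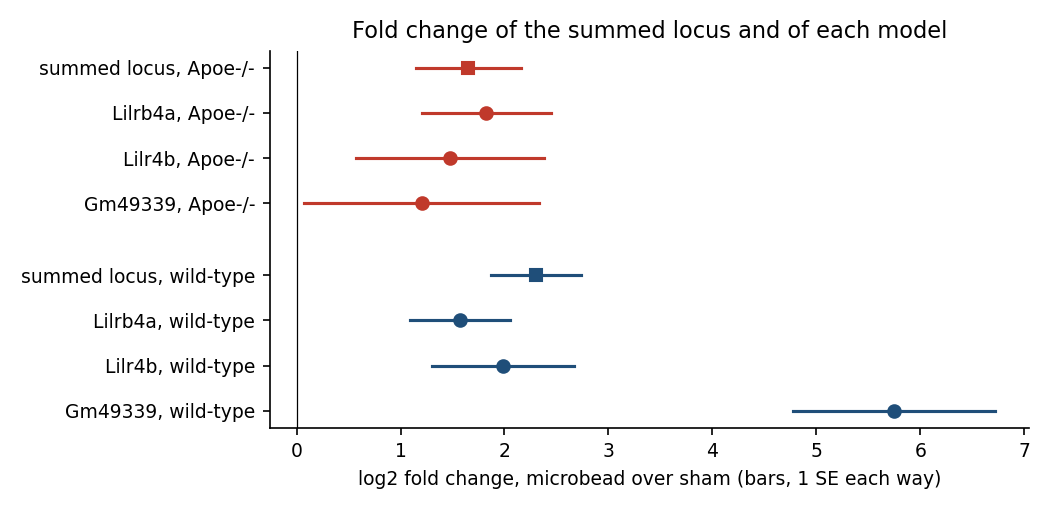
Log2 fold change of microbead over sham for the summed locus (squares) and for each model fitted as its own row (circles), with bars of 1 SE each way, Apoe-/- in red and wild type in blue. The summed locus lies at 1.65 in Apoe-/- and 2.30 in wild type, whereas Gm49339 alone lies at 1.20 and 5.75.

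The wild-type value of Gm49339 rests on very few sham reads. Gm49339 received 19.3, 84.1 and 38.3 reads in wild-type microbead libraries, against 0, 1.6, 0 and 0 in wild-type sham libraries. In Apoe-/- libraries the model received 1.3, 0, 1.7 and 10.2 reads with microbeads, against 0, 0, 0 and 3.6 with sham injection. All 3 models passed the filter on low counts, Gm49339 with at least 10 reads only in the 3 wild-type microbead libraries and in Apoe-/- microbead library 4.

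Lilrb4a received 13, 20.7, 8.8 and 9.1 reads in Apoe-/- microbead libraries, against 5.0, 2.0, 2.4 and 2.9 in Apoe-/- sham libraries. In CPM the lowest microbead library stood at 14.1 and the highest sham library at 11.9. Such a separation held for 1.55% of the 6519 genes tested with the 3 models summed, a fit in which Lilrb4a was not a row. The sham values of 2.0, 2.4 and 2.9 reads lie under 3 reads, the limit given below for a count of 0. In wild type Lilrb4a received 16.4, 112.7 and 30.2 reads with microbeads and 16.4, 9.5, 16.7 and 8.2 with sham injection. These groups overlapped, with the lowest microbead library at 23.75 CPM and the highest sham library at 24.86 CPM. Mean Lilrb4a levels were 28.7 ± 19.4 CPM in Apoe-/- microbead and 8.15 ± 3.20 CPM in Apoe-/- sham libraries (SD, n = 4 each). Wild-type microbead libraries had 58.9 ± 47.3 CPM (SD, n = 3) and wild-type sham libraries 19.8 ± 3.64 CPM (SD, n = 4).

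Lilr4b received 6.7, 9.3, 9.5 and 4.8 reads in Apoe-/- microbead libraries, against 3.0, 0, 4.6 and 1.4 in Apoe-/- sham libraries. The lowest Apoe-/- microbead library, at 7.40 CPM, lay below the highest Apoe-/- sham library, at 8.03 CPM, so that these groups overlapped. In wild type Lilr4b received 7.3, 110.2 and 19.5 reads with microbeads and 14.6, 6.9, 1.3 and 6.8 with sham injection, and again the groups overlapped.

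As a share of the locus reads, Gm49339 took 6.35, 0, 8.45 and 42.4% in Apoe-/- microbead libraries, against 0, 0, 0 and 45.3% in Apoe-/- sham libraries. Most Apoe-/- libraries thus gave Gm49339 little or nothing, and 1 library of each group gave it over 40%. The means were 14.3 ± 19.1% in microbead and 11.3 ± 22.7% in sham libraries (SD, n = 4 each), a difference of 2.98 percentage points, for which the exact two-sided permutation test gave p = 0.657. Over the 3 permutation tests the adjusted p was also 0.657. The sign was not stable: the difference was -6.40 points without microbead library 4, -0.80 points without sham library 1, 2 or 3, -0.77 points with shares of TPM and -0.60 points with reads summed over each group. In wild type Gm49339 took 44.9, 27.4 and 43.6% with microbeads, against 0, 8.87, 0 and 0% with sham injection. That is 38.6 ± 9.76% (SD, n = 3) and 2.22 ± 4.43% (SD, n = 4), on 438 and 82 reads.

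The reads of Gm49339 were divided among its 3 transcripts differently from library to library. Gm49339-203, the one that contains Lilrb4a-201, received reads only in wild-type microbead library 2 (66.8 reads). Gm49339-201, which lacks an exon of it, received reads only in wild-type microbead library 3 (34.2 reads). Gm49339-202, annotated for nonsense-mediated decay, received reads in 8 libraries and 59.2 in all. The 4 protein-coding transcripts of Lilrb4a received 0 reads in all 15 libraries. Gm49339-201 and Gm49339-203, whose coding sequences are those of Lilrb4a-212 and Lilrb4a-201, received 101 reads between them, all in wild-type microbead libraries.

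Most reads at the locus were assigned to transcripts with retained introns, which span intron sequence and encode no annotated protein. These took 424.9 of the 640 locus reads, or 66.4%. Lilr4b-206, a single exon of 4004 bases, received the most, 104.2 reads in 6 libraries. Lilrb4a-214 followed with 89.7 reads in 8 libraries and Lilrb4a-206 with 53.8 reads in 10. Of the spliced transcripts of Lilrb4a only Lilrb4a-205, annotated for nonsense-mediated decay, received reads, 5.40 in wild-type sham library 3 and 8.21 in Apoe-/- microbead library 2.

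The retained-intron share was 93.7, 61.7, 91.6 and 57.6% in Apoe-/- microbead libraries, against 100, 100, 100 and 54.7% in Apoe-/- sham libraries. The means were 76.1 ± 19.1% and 88.7 ± 22.7% (SD, n = 4 each), a difference of -12.5 points. An exact two-sided permutation test, which was not among those planned beforehand, gave p = 0.314 (adjusted p = 0.471). The difference was smaller than the spread in either group. Leaving out 1 library moved it from -6.36 points, without microbead library 4, to -23.9 points, without sham library 4 (exact permutation p = 0.0857). In wild type the share was 55.1, 63.0 and 56.4% with microbeads and 86.0, 67.5, 70.0 and 100% with sham injection. With the reads of 9110 other genes that have such a transcript pooled, retained-intron transcripts took 13.8 to 32.0% in the same libraries, below the locus in all 15. A pooled share does not show where the locus would stand among single genes. At the locus 17 of the 30 transcripts are annotated as retained intron.

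**Figure D4:**
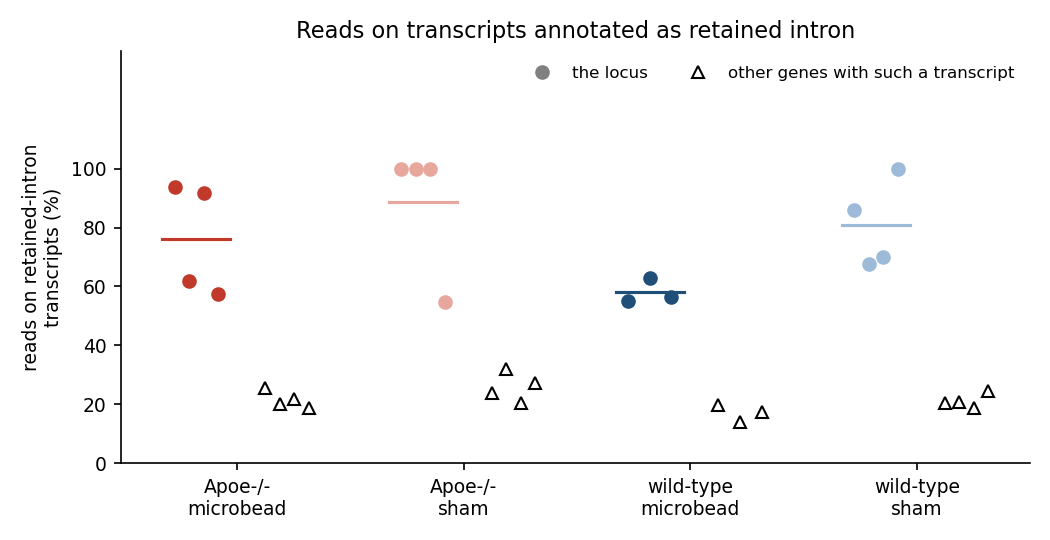
Percent of reads on transcripts annotated as retained intron, for the locus (filled circles, with a bar at the group mean) and for the pooled reads of the 9110 other genes with such a transcript (open triangles), 1 point of each kind per library. The locus stands between 54.7 and 100% and the pooled other genes between 13.8 and 32.0%.

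In amounts, reads on retained-intron transcripts averaged 37.1 ± 12.1 CPM in Apoe-/- microbead and 12.9 ± 4.34 CPM in Apoe-/- sham libraries (SD, n = 4 each). Reads on the other transcripts averaged 13.3 ± 13.5 CPM in Apoe-/- microbead and 2.37 ± 4.73 CPM in Apoe-/- sham libraries. In wild type the retained-intron reads averaged 98.0 ± 84.2 CPM with microbeads (SD, n = 3) and 27.3 ± 11.3 CPM with sham injection (SD, n = 4). The other reads averaged 64.2 ± 44.3 CPM and 5.82 ± 4.25 CPM in the same groups. Both averages were larger with microbeads in each genotype, and neither was tested.

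The sorted cells carried the markers of microglia. All 12 markers on the list, among them P2ry12 and Tmem119, were detected in every group, with a summed level of 8860 to 14440 CPM in Apoe-/- microbead, 7045 to 14350 CPM in Apoe-/- sham, 10370 to 13480 CPM in wild-type microbead and 12480 to 14410 CPM in wild-type sham libraries. Apoe itself had 0 to 6 reads in Apoe-/- libraries and 667 to 15125 in wild-type libraries. Libraries held 458303 to 714838 gene reads, and after TMM scaling the smallest size was 225181 (Apoe-/- sham library 2, with 2 locus reads) and the largest 999913 (wild-type microbead library 2, with 307). At these sizes 3 reads, about the upper 95% limit for a count of 0 by counting error alone, correspond to 3.00 to 13.3 CPM.

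Other cells that carry gp49 receptors were looked for beside these levels. The 10 monocyte and macrophage markers summed to 39.6 to 104 CPM in Apoe-/- microbead and 37.5 to 141 CPM in Apoe-/- sham libraries (medians 60.9 and 69.8). In wild type they summed to 39.3 to 142 CPM with microbeads and 32.2 to 55.3 CPM with sham injection (medians 94.5 and 42.5). Ly6c2 was at 0 in Apoe-/- microbead, Chil3 in wild-type microbead, and Plac8 and S100a4 in wild-type sham libraries. No member was at 0 in Apoe-/- sham libraries, and the other members had reads in each group. The 10 mast cell markers summed to 12.0 to 28.8 CPM in Apoe-/- microbead, 5.22 to 48.6 CPM in Apoe-/- sham, 5.96 to 17.3 CPM in wild-type microbead and 4.56 to 25.5 CPM in wild-type sham libraries. Of these 10, 4 were at 0 in Apoe-/- microbead libraries (Cpa3, Fcer1a, Mcpt4 and Tpsb2) and 1 in Apoe-/- sham libraries (Tpsb2). In wild type 7 were at 0 with microbeads and 6 with sham injection, and the other members had reads. The 10 neutrophil markers summed to at most 35.3 CPM in Apoe-/- microbead, 87.1 CPM in Apoe-/- sham, 18.8 CPM in wild-type microbead and 41.7 CPM in wild-type sham libraries. In the same order 6, 4, 6 and 6 of them were at 0, S100a9 in every group, and the other members had reads. The 11 NK and T cell markers stayed at or below 21.7 CPM in every library. The 9 dendritic cell markers summed to 564 to 668 CPM in Apoe-/- microbead, 422 to 750 CPM in Apoe-/- sham, 306 to 565 CPM in wild-type microbead and 635 to 751 CPM in wild-type sham libraries, so that the wild-type groups did not overlap and microbead libraries were lower. Most of this was Siglech, which is also on the microglia list. Without it, a step added after the values were seen, the other 8 summed to 14.4 to 17.3 CPM in Apoe-/- microbead, 23.9 to 61.8 CPM in Apoe-/- sham, 14.4 to 25.6 CPM in wild-type microbead and 10.6 to 36.5 CPM in wild-type sham libraries. For these 8 the Apoe-/- groups did not overlap, with microbead libraries lower, and the wild-type groups did overlap. The share of all genes with every microbead library lower was not counted, so nothing is read from either separation. The 10 markers of border-associated macrophages summed to 151 to 344 CPM in Apoe-/- microbead, 150 to 279 CPM in Apoe-/- sham, 161 to 227 CPM in wild-type microbead and 158 to 271 CPM in wild-type sham libraries. The 12 rod photoreceptor markers summed to 153 to 2480 CPM in Apoe-/- microbead, 142 to 1506 CPM in Apoe-/- sham, 85.7 to 603 CPM in wild-type microbead and 533 to 2419 CPM in wild-type sham libraries. The part of these cells in the locus reads was not tested.

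Immediate early and heat shock genes, which tissue handling can induce, also differed between libraries. On this list 20 of 21 tested members had a positive fold change in Apoe-/- (median log2 1.21, against 0.01 for all genes). In wild type 20 of 21 did (median 1.00, against -0.01), and none passed the threshold in either genotype. Over all genes 50.8% were positive and 0% passed in Apoe-/-, and 49.1% were positive and 0.199% passed in wild type. Their mean log2 CPM was 6.13, 4.27, 3.89 and 8.08 in Apoe-/- microbead libraries, against 3.95, 6.05, 4.84 and 5.94 in Apoe-/- sham libraries. In wild type the list stood at 5.75, 7.93 and 7.03 with microbeads and at 5.52, 4.28, 6.89 and 6.03 with sham injection. The part of these genes in the locus result was not tested.

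Genes of the neurodegenerative microglial state formed a list that holds none of the 3 models, and Apoe, the deleted gene, was left out of it after its values were seen. Of the 25 other members 21 had a positive fold change in Apoe-/- (median log2 0.54) and none passed the threshold, as for all genes (0% called, 50.8% positive). In wild type 22 were positive (median 1.00) and 7 passed, where 0.199% of all genes passed (13 of 6519, all higher) and 49.1% were positive. Their mean log2 CPM was 6.33, 7.48, 6.60 and 6.34 in Apoe-/- microbead libraries, against 6.25, 6.14, 6.29 and 6.14 in Apoe-/- sham libraries. Library 2 was the highest of the Apoe-/- microbead libraries for this list as it was for the locus, and without it the locus log2 fold change in Apoe-/- was 1.34 (adjusted p = 0.832 by edgeR). In wild type the list stood at 7.64, 8.23 and 7.61 with microbeads and at 6.33, 6.34, 6.37 and 6.32 with sham injection.

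The locus was set beside the other inhibitory receptors expressed by these cells. Of 22 tested members of that list 15 had a positive fold change in Apoe-/- (median log2 0.23) and 12 in wild type (median 0.03). Over all genes 50.8% were positive in Apoe-/- and 49.1% in wild type. None passed the threshold in either genotype, and of all genes 7.85% had an unadjusted edgeR p under 0.05 in wild type. That share is at a looser cut than the count for the list. At the threshold itself 0.199% of all genes passed in wild type and 0% in Apoe-/-, so the absence of calls does not set the list apart. Microbead and sham libraries were fully apart, with microbeads higher, for 0 of the 22 in Apoe-/- (1.55% of all genes) and for 6 in wild type (6.27% of all genes). Cd72 and Lag3, named after their values were seen, had the largest fold changes of the list in Apoe-/-, 1.19 (SE 0.53) and 1.15 (SE 0.41), and had 1.56 (SE 0.47) and 1.24 (SE 0.41) in wild type, without passing. The 3 with the highest TPM were Vsir (VISTA), Lair1, a collagen receptor, and Sirpa, the receptor for CD47. Vsir stood at 48.1 TPM in Apoe-/- microbead and 40.8 TPM in Apoe-/- sham retinas (log2 fold change of counts 0.03, SE 0.26). Lair1 stood at 50.1 TPM and 43.0 TPM in the same groups (0.07, SE 0.25), and Sirpa at 43.1 TPM and 37.2 TPM (-0.06, SE 0.24). The same fold changes in wild type were 0.04 (SE 0.28) for Vsir, -0.11 (SE 0.27) for Lair1 and -0.16 (SE 0.26) for Sirpa, all smaller than their SE.

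The signalling proteins behind ITIMs were measured as well. Of 11 tested members 4 had a positive fold change in Apoe-/- (median log2 -0.06) and 10 in wild type (median 0.25), and none passed. Over all genes 50.8% were positive and 0% passed in Apoe-/-, and 49.1% were positive and 0.199% passed in wild type. The absence of calls therefore does not set this list apart. Ptpn6, which encodes the phosphatase SHP-1, had a log2 fold change of -0.03 (SE 0.25) in Apoe-/- and 0.13 (SE 0.26) in wild type. Inpp5d, which encodes the lipid phosphatase SHIP1, had -0.13 (SE 0.27) in Apoe-/- and 0.02 (SE 0.29) in wild type. Lyn, a kinase that phosphorylates ITIMs, had 0.34 (SE 0.27) in Apoe-/- and 0.25 (SE 0.29) in wild type.

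On the opposing side, 11 of 14 tested activating receptors and adaptors had a positive fold change in Apoe-/- (median log2 0.13). In wild type 12 did (median 0.22), and none passed the threshold in either genotype. Here too the absence of calls does not set the list apart, as 0% of all genes passed in Apoe-/- and 0.199% in wild type. The positive shares of all genes were 50.8% and 49.1% in the same order. Tyrobp (DAP12), the adaptor of Trem2, had 0.06 (SE 0.25) in Apoe-/- and 0.45 (SE 0.26) in wild type. Fcer1g, the common chain of activating Fc receptors, had 0.15 (SE 0.23) in Apoe-/- and 0.23 (SE 0.25) in wild type. Trem2, a lipid receptor of microglia, had 0.10 (SE 0.23) in Apoe-/- and 0.14 (SE 0.25) in wild type.

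A list of ligands reported for Lilrb4 or for related receptors in mouse or human had 5 tested members beside Apoe. In Apoe-/- 4 of the 5 had a positive fold change (median log2 0.14) and none passed, as for all genes (0% called, 50.8% positive). In wild type 2 of the 5 were positive (median -0.29), against 49.1% of all genes. By edgeR 2 of the 6 members, Apoe included, passed in wild type, where 0.199% of all genes did. These were Apoe (2.80, SE 0.41, adjusted p = 0.00451), higher in 3 of 3 microbead libraries, and the complement gene C4b (4.89, SE 0.98, adjusted p = 0.0361), which has the close copy C4a. Apoe is the deleted gene in the other genotype. Itgav, the integrin chain, had -0.79 (SE 0.31) in Apoe-/- and -1.03 (SE 0.31) in wild type, without passing.

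The 10 genes whose log2 CPM was most like that of the locus were named by Pearson's r over the 15 libraries, among 4209 genes with a mean of at least 20 CPM. They were Cd74 (r 0.92), Lyz2 (0.91), H2-Eb1 (0.91), Hcar2 (0.90), H2-Aa (0.89), Ctsb (0.88), H2-Ab1 (0.87), Rtcb (0.87), H2-K1 (0.87) and Fth1 (0.87). The median r of all candidates was 0.06. Cd74, H2-Aa, H2-Ab1 and H2-Eb1 belong to antigen presentation by MHC class II, H2-K1 to class I, Lyz2 encodes lysozyme, Ctsb a lysosomal protease, Fth1 a ferritin chain, Hcar2 a receptor for hydroxybutyrate and Rtcb an RNA ligase. Over the 8 Apoe-/- libraries alone their r ran from 0.76 for H2-Ab1 to 0.87 for Cd74. These 8 are among the 15 that picked the genes, so high values there follow from the choice. Genes of a library share its depth and scaling, and no p is given.

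Cd74, the invariant chain of MHC class II and the gene most like the locus by this measure, averaged 88.7 ± 12.3 CPM in Apoe-/- microbead and 25.0 ± 17.5 CPM in Apoe-/- sham libraries (SD, n = 4 each). It averaged 294 ± 187 CPM in wild-type microbead (SD, n = 3) and 76.5 ± 25.2 CPM in wild-type sham libraries (SD, n = 4). In Apoe-/- its log2 fold change was 1.82 (SE 0.47), with an edgeR adjusted p of 0.699 that did not pass.

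**Figure D5:**
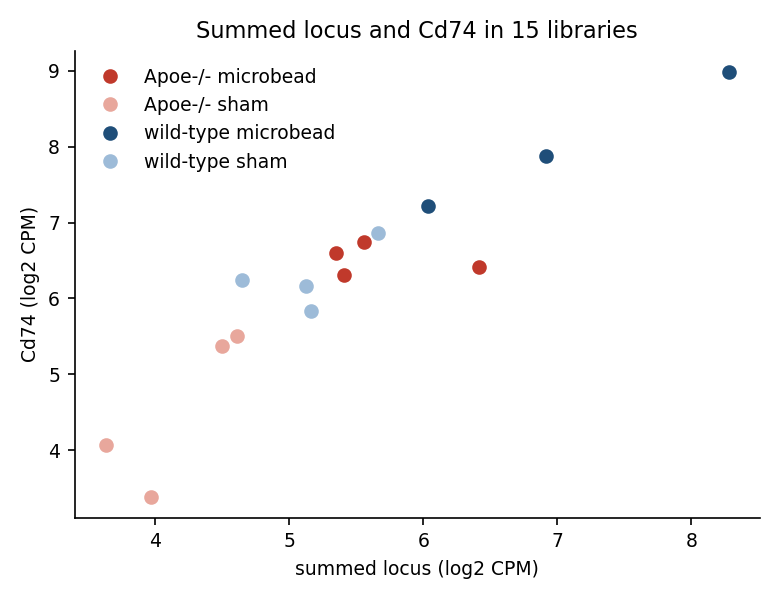
Log2 CPM of the summed locus (horizontal) and of Cd74 (vertical) in the 15 libraries, 1 point per library, coloured by group. Points run from Apoe-/- sham at the lower left to wild-type microbead at the upper right (r 0.92), with Apoe-/- microbead and wild-type sham libraries mostly between them.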

How the data were processed

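Salmon's estimated counts of reads per transcript, and TPM, were deposited by the authors in 1 table per library, per the file headers. Salmon splits a read with several matching transcripts between them. Effective lengths (in bases, per the file headers) served only as length offsets. The submitters' processing notes name Salmon 1.4.0, R 4.0.3, DESeq2 1.30.1 and mm10, and the series table mentions SMART-Seq2, which amplifies whole cDNA from few cells. For the annotation release and the library type, no source used here gives them.

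GENCODE M21 gave each transcript its gene (116023 of 116945; the rest held 0.217 to 0.354% of reads and were left out). In all 45 values compared, TPM of the 3 models matched the authors' deposited gene table at a relative tolerance of 0.001. Counts were rounded after the 3 models had been summed to 1 row, or kept apart in a second fit. edgeR 4.0.16 (R 4.3.3; TMM, filterByExpr, quasi-likelihood test, two-sided, Benjamini-Hochberg over 6519 genes, threshold 0.05) fitted all 15 libraries in 4 groups, and SE is the fold change divided by the square root of F. The fit was tested on simulated data. Log2 CPM uses a prior count of 2. Sequences were read with Biopython 1.88. Chi-square over degrees of freedom was at least 2.21 between any pair of libraries in a group, so none was counted as a repeat. The limit of 3 reads covers counting error only.

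The models, gene lists and rule for named genes were chosen with earlier results of these data known. The rule took the 3 models and their transcripts, in each list of receptors, signalling proteins and ligands the called genes and the 3 of highest TPM, and the 10 genes most like the locus. At the locus and its models only Apoe-/- microbead against sham was tested; calls of other genes are given in both genotypes. Same-numbered libraries were checked for pairing: not every pair's correlation was over 0.1, so no pairing was used. Alternatives were DESeq2 1.42.0, limma 3.58.1 on TPM, other scaling and filters, a replicate block and leaving out each library.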

Additional observations from a re-analysis of the deposited data

Results flagged for a closer look

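Over 7 overlapping quantities in the 3 groups of 4 libraries, 6 of 21 checks found 1 library far from the rest of its group by the gap to its nearest neighbour. Chance marks about 1 in 20 such checks, but that rate does not apply to 5 of the 6, in which the other 3 libraries all stood at 0 or all at 100%. In Apoe-/- microbead retinas, library 2 had the highest summed locus level, 81.97 CPM. In Apoe-/- sham retinas, library 4 was the only one with Gm49339 reads, at 9.46 CPM and 45.32% of its locus reads, and its retained-intron share was 54.68%, the lowest of its group. Those 3 values rest on 8 locus reads. In wild-type sham retinas, library 2 was the only one with Gm49339 reads, at 2.785 CPM, or 8.867% of 18 locus reads.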

How the results depend on the processing

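The log2 fold change of the locus in Apoe-/- was positive in all 28 alternatives. It passed the threshold only without a filter on low counts (1.751, adjusted p = 0.0347). The exact permutation test of log2 CPM added after the values were seen gave 1.507, with p = 0.0286 unadjusted and 0.0858 adjusted over 3 tests. That p only restates the lack of overlap between the groups. Leaving out 1 library gave 1.34 to 1.815, with adjusted p from 0.369 to 0.969. The other fits gave adjusted p up to 0.834, with 1.542 under the replicate block (adjusted p = 0.809).

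Choosing a model moved the descriptions most. Gm49339 as its own row gave 5.749 in wild type, -4.547 for the difference between responses, 1.437 for Apoe-/- over wild type with sham injection and -3.11 with microbeads. Lilrb4a as its own row gave 0.256 for the difference. Leaving out 1 library gave 1.439 to 2.682 in wild type, -1.032 to 0.212 for the difference and -2.115 to -0.8698 for Apoe-/- over wild type with microbeads, the 1.439, 0.212 and -0.8698 all without wild-type microbead library 2.

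The difference in Gm49339 share in Apoe-/- reversed to -0.7721 with shares of TPM, to -0.5977 with reads summed over each group, to -6.399 without microbead library 4 and to -0.7984 without sham library 1, 2 or 3, with 14.31 the highest value. A minimum of 10 reads at the locus left no Apoe-/- sham library and gave no value.

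The 13 genes called in wild type became 37 with DESeq2, 122 without a filter, 7 with at least 10 reads in 7 libraries, 84 and 20 with limma on log2(TPM + 1) and log2(TPM + 0.1), 33 with only the 2 groups compared, 21 with length offsets and 0 to 29 with 1 library left out. In Apoe-/- the count was 38 without a filter and 0 otherwise. The cause was not tested. The replicate block gave 3 calls in wild type. Same-numbered microbead and sham libraries correlated at -0.162 to 0.0287 and 0 of 7 matched its own number best. Over all 14 same-numbered pairs, those between genotypes included, 3 did. These correlations cannot show whether equal numbers mark a shared origin, and the labels do not say. With 25 reads in the 4 Apoe-/- sham libraries, shares there are coarse.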
